A study of Mus musculus with 2 samples.

Results

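Genes of the ciliary axoneme and of intraflagellar transport were examined in mouse lung RNA. The 44 genes were taken by name. They comprised every axonemal dynein, tektin, radial spoke and intraflagellar transport gene with a numbered symbol in the deposited tables. Foxj1, Tppp3, Sec14l3, Dnali1, Dynlrb2, Spag6, Spag16, Spag17 and Hydin were added. They account for 47 of 28107 transcript records and 44 of 22072 genes. The study compared whole dissected lung of Foxf1 fl/fl mice, the control pool, with lung of mice that carried the same floxed alleles together with Pdgfb-iCreER, the knockout pool. Both groups were labelled C57/BL6. RNA from the lungs of multiple animals was combined before sequencing, which leaves 1 library per genotype and no replicate check for any difference. Pdgfb-iCreER is a tamoxifen-inducible Cre recombinase driven in endothelial cells, rather than in the airway epithelium that bears motile cilia. The control mice carried no Cre, so that Cre and the loss of Foxf1 cannot be told apart. How many mice were combined, their age and sex, and the tamoxifen schedule were not given in the sources used here.

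A motile cilium is built on a ring of microtubule doublets around a central pair. Dynein arms on the doublets generate the stroke, radial spokes and the projections of the central pair regulate it, and tektins run along the doublet wall. Intraflagellar transport carries building material along every cilium, including the single immotile primary cilium found on many cell types. In the lung, motile cilia belong to the multiciliated cells of the airways, whose gene programme depends on the forkhead factor FOXJ1 and on RFX factors.

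The promoters of members from groups with different ratios are shown to set the sequences beside the values that follow. RefSeq promoters on GRCm38.p6 (a later build than the mm9 of the deposited tables), each 250 bases before to 50 after the start of the gene, were given for 35 of the 44 genes. Dnahc7b, Rsph1, Rsph4a, Tekt5, Ift80, Ift81, Ift122, Tppp3 and Foxj1 had no entry. Both strands were searched for GTTGCC, a core of the X-box bound by RFX factors, and for the forkhead core TGTTTAC. The 120 bases before the first listed start are printed 5′ to 3′ on the strand of the gene, with the RFX core or its reverse complement GGCAAC in capitals.
Dynlrb2, chr8:116504895-116505014, plus strand: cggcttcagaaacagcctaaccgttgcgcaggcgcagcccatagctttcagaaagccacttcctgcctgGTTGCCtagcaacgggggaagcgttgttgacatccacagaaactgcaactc
Dnaic2, chr11:114727299-114727418, plus strand: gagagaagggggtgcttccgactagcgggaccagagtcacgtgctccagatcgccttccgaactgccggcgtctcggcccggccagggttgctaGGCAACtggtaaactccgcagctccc
Hydin, chr8:110266857-110266976, plus strand: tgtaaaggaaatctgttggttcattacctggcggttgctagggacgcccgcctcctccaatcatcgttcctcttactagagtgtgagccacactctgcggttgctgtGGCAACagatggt
Spag16, chr1:69826850-69826969, plus strand: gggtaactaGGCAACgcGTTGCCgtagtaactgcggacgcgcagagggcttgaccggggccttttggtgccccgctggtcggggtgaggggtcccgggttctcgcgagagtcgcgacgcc
Tekt1, chr11:72361883-72362002, minus strand: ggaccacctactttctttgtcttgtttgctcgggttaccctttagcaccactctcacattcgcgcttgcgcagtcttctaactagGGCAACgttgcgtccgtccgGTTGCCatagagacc
Tekt2, chr4:126325689-126325808, minus strand: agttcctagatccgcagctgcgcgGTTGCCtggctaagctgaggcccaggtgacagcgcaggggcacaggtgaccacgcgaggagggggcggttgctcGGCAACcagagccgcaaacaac
Ift57, chr16:49699174-49699293, plus strand: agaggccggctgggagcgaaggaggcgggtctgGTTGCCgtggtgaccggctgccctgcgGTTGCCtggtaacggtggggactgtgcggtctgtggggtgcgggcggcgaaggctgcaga
Ift27, chr15:78174082-78174201, minus strand: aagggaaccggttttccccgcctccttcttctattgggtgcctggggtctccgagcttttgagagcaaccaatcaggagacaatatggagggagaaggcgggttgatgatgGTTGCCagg
Sec14l3, chr11:4064733-4064852, plus strand: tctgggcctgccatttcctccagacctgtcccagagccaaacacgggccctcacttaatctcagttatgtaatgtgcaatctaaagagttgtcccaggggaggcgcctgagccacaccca
In Dynlrb2 the core began 51 bases before the start and was followed by its near mirror image. Tekt1, Tekt2, Spag16 and Ift57 each held 2 cores in this window. Sec14l3 held neither motif. Over the whole 300 bases, 15 of the 35 member genes (42.9%) held the RFX core, against 14.1% of the 27025 genes with a promoter entry. Of the 12929 genes whose mean FPKM over these lungs was at least 1, 10124 could be matched to an entry, and 14.9% of these held it. By group of members the core was present in 3 of 13 motor genes, 1 of 4 spoke genes, 3 of 4 central apparatus genes, 3 of 4 tektins and 5 of 9 transport genes. The core was thus found in genes that were lower in knockout lung and in genes that were near level. The forkhead core was present in 2 of 35 members, Dnahc17 and Tekt3, against 4.05% of all genes, and no member promoter held both motifs. A match is a description of the letters and not a binding site. Only exact letters were counted, so that a variant such as gttgctaagcaac before Dnahc6 counted as absent. Absence of a match is therefore not absence of a site. Every printed promoter except that of Sec14l3 holds the core, so that the printed set does not show its share.

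Estimated from the coverage values, sequencing depth was about 13.6 M reads for control lung and 10.6 M for knockout lung. Foxf1, listed as Foxf1a, was at 72.1 FPKM in control lung and 15.7 FPKM in knockout lung, 4.59-fold lower (3.97 to 5.32). Intervals after folds are 95% exact conditional intervals from these estimated reads, and they cover counting error only. FPKM scales fragments by transcript length and library size, so that levels can be compared between genes of different length. Sftpc, a surfactant gene that marks lung, was at 15925 FPKM in control lung and 13793 in knockout lung. Testis germ cells share many axonemal genes with ciliated cells. Of 10 other genes that mark testis germ cells, 9 were listed at 0 in both pools. The remaining gene, Acrv1, was at 0.0496 FPKM in control lung alone.

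Genes of the motile axoneme were lower in knockout lung, and genes of intraflagellar transport were near level. Of the 44 members, 38 had a lower FPKM in knockout lung, 5 had a higher FPKM and Rsph6a was listed at 0 in both. Of all genes, 43.2% of those averaging at least 1 FPKM and 44.1% of those with 20 or more estimated reads were lower. On the log2(FPKM + 1) scale, 32 members averaged at least 1 FPKM. Of these, 5 were at least 1.5-fold lower, against 4.63% of all 12929 genes over this floor, and none was at least 1.5-fold higher, against 9.41%. The 5 were Tppp3, Dnaic1, Dnali1, Sec14l3 and Tekt5. The 32 members had a median log2 ratio of -0.28, while that of all genes over the floor was 0.05. The median was -0.49 for 7 motor genes, -0.28 for 5 spoke genes, -0.48 for 4 tektins and -0.06 for 12 transport genes. The 3 genes of the ciliated cell outside the axoneme had a median of -0.67, and Spag6, the single central apparatus gene over the floor, was at -0.16. In RNA of whole lung, fewer ciliated cells and less of these RNAs per cell cannot be told apart.

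**Figure D1:**
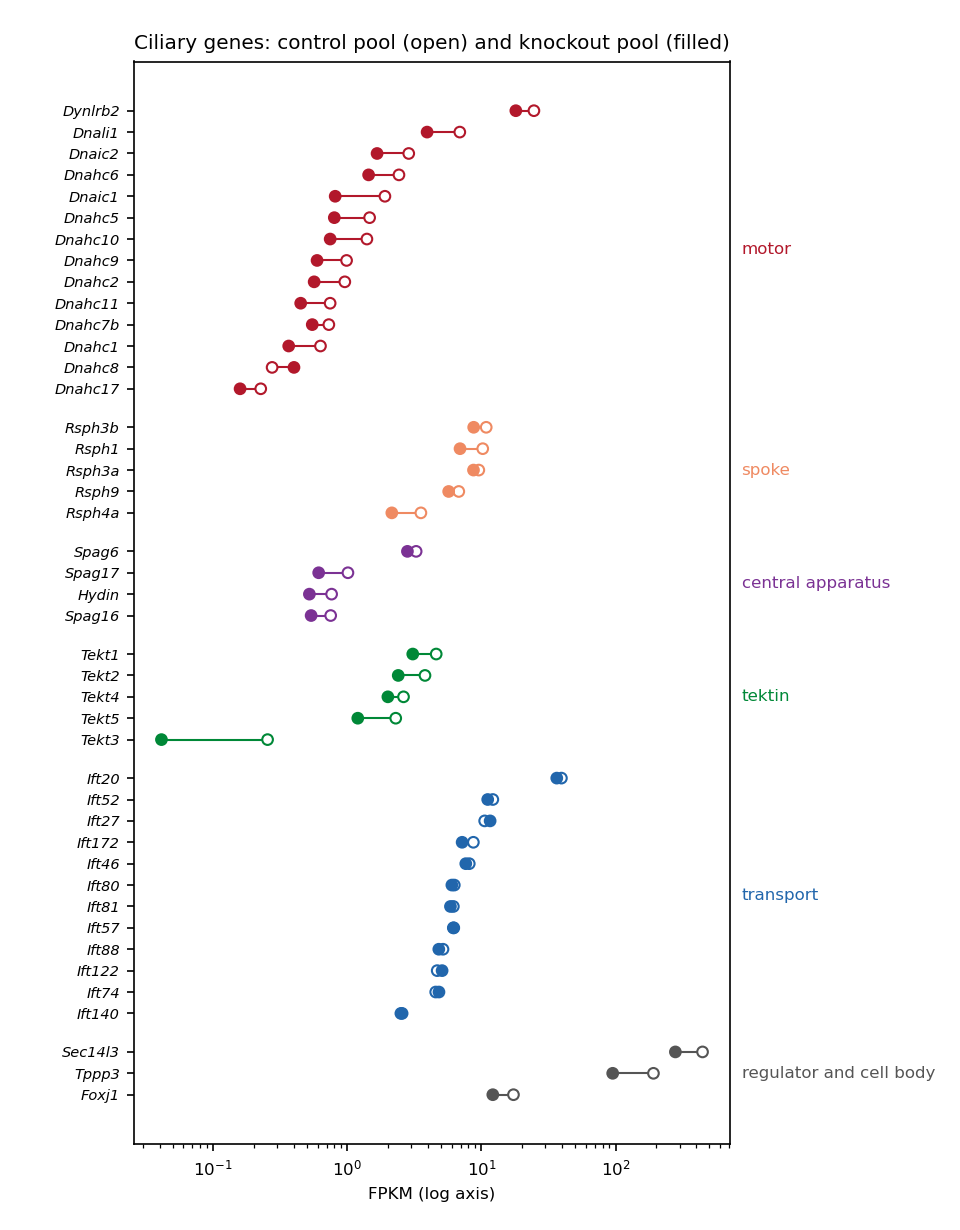
FPKM (log axis) of the 43 ciliary genes above 0 in control lung (open circles) and the knockout pool (filled circles), 1 library each, ordered within groups by the control level. The filled circle lies to the left of the open one for every axonemal gene except Dnahc8, while the 2 circles nearly coincide for most transport genes.

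Adding 1 to FPKM compresses ratios of weakly expressed genes, and most dynein heavy chains lie near 1 FPKM although their long transcripts collected many reads. Plain FPKM ratios of genes with at least 20 estimated reads over both libraries were therefore added after the values had been seen, and the folds below are on that scale. It includes 42 members, all but Rsph6a and Tekt3. Of these, 16 were at least 1.5-fold lower, against 8.44% of 14326 genes, and none was at least 1.5-fold higher, against 13.1%. The counting interval lay wholly below equality for 24 members, against 21.2% of all genes, and wholly above it for 1, against 31.8%.

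On the plain scale the motor group had the lowest median, at 1.69-fold lower over 14 genes. Dynein heavy chains, the ATPases of the arms, were low in level, from 0.226 to 2.43 FPKM in control lung. Of the 10 heavy chains, 9 were lower in knockout lung, 7 of them by at least 1.5-fold. Among chains of the outer arm, which sets beat frequency, Dnahc5 was at 1.47 FPKM in control lung and 0.800 in knockout lung, 1.83-fold lower (1.52 to 2.21), from about 387 and 163 reads. Dnahc9 was at 0.988 and 0.595 FPKM, 1.66-fold lower (1.31 to 2.10), and Dnahc11 at 0.745 and 0.449 FPKM, 1.66-fold lower (1.27 to 2.19). These 3 outer-arm chains thus differed by similar folds. Among chains of the inner arms, which shape the bend, Dnahc10 was at 1.40 and 0.745 FPKM, 1.88-fold lower (1.53 to 2.31). Dnahc2, at 0.959 and 0.566 FPKM, was 1.69-fold lower (1.33 to 2.16). Dnahc6, the most abundant heavy chain, was at 2.43 and 1.44 FPKM, 1.68-fold lower (1.44 to 1.97). The folds of inner-arm and outer-arm chains overlapped. Dnahc1, another inner-arm chain, was at 0.631 and 0.366 FPKM, 1.73-fold lower (1.27 to 2.38). Dnahc7b was at 0.729 and 0.548 FPKM, 1.33-fold lower (1.02 to 1.75), but it has near-identical relatives, so that its share of reads is uncertain.

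Dnahc8 and Dnahc17, heavy chains known best from the sperm tail, were the weakest of the group. Dnahc8 was at 0.275 FPKM in control lung and 0.401 in knockout lung, 1.46-fold higher (1.03 to 2.05), from about 68 and 76 reads. It was the single member whose interval lay above equality. Dnahc17 was at 0.226 and 0.159 FPKM, a difference smaller than its counting error. Dnahc8 is on chromosome 17 from 30763881 to 31012209 (mm9), and no other symbol of the tables overlaps it.

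The smaller dynein subunits were lower as well. Dnaic1, an outer-arm intermediate chain, was at 1.91 FPKM in control lung and 0.813 in knockout lung, 2.35-fold lower (1.5 to 3.84), the lowest ratio among motor genes. Its partner Dnaic2 was at 2.87 and 1.67 FPKM, 1.72-fold lower (1.27 to 2.37). Dnali1, a light chain of the inner arm, was at 6.90 and 3.94 FPKM, 1.75-fold lower (1.39 to 2.21). Dnaic2 and Dnali1 thus lay within the range of the heavy chains and Dnaic1 beyond it, with an interval that overlaps theirs. Dynlrb2, a roadblock-type light chain and the most abundant motor gene, was at 24.6 and 18.1 FPKM, 1.36-fold lower (1.08 to 1.72). Its relative Dynlrb1, a subunit of cytoplasmic dynein in many cell types, went the other way at 77.8 and 89.3 FPKM, 1.15-fold higher (1.04 to 1.26). Dnaic1 (chromosome 4, 41516827 to 41585191, mm9) overlaps the locus of Enho and Dnali1 that of Gnl2, and the tables do not show from which strand reads came.

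The radial spoke genes, which pass signals from the central pair to the dynein arms, had differing ratios. Rsph4a, a component of the spoke head, was at 3.54 FPKM in control lung and 2.15 in knockout lung, 1.65-fold lower (1.29 to 2.10). Rsph1, also of the head, was at 10.2 and 6.93 FPKM, 1.48-fold lower (1.16 to 1.88). Rsph9, another head gene, was at 6.78 and 5.70 FPKM, 1.19-fold lower (0.871 to 1.63), within its counting error. The folds of these head genes therefore ranged from the motor level to nearly even, but their intervals overlap. The stalk genes Rsph3a (9.57 and 8.73 FPKM) and Rsph3b (10.9 and 8.76 FPKM) lie on chromosome 17 and are near-identical copies that share reads. Together they were at 20.4 and 17.5 FPKM, 1.17-fold lower (1.03 to 1.33). The gap between spokes and motors depended in part on these copies. Without members that have a near-identical relative, the plain median log2 ratio was -0.56 for spokes (-0.31 with them) and -0.76 for motors. On the log2(FPKM + 1) scale the same omission gave -0.50 for spokes and -0.49 for motors, while counting the copies as 1 gene gave -0.36 for spokes.

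Central apparatus genes and tektins lay between spokes and motors on the plain scale, at medians of 1.43-fold and 1.54-fold lower over 4 genes each. Spag17, a central pair protein, was at 1.01 and 0.612 FPKM, 1.65-fold lower (1.20 to 2.24). Hydin, which forms a projection of the central pair, was at 0.764 and 0.522 FPKM, 1.46-fold lower (1.16 to 1.87). Both were thus close to the dynein chains in fold and in level. Spag6 (3.26 and 2.81 FPKM) and Spag16 (0.752 and 0.538 FPKM), also of the central apparatus, were lower by less than their counting error. Spag6 has a close relative with which it may share reads. The locus of Spag17 overlaps that of Wdr3.

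Every tektin was lower in knockout lung, though with few reads. Tekt1 was at 4.60 and 3.08 FPKM, 1.5-fold lower (1.08 to 2.11), and Tekt2 at 3.80 and 2.40 FPKM, 1.58-fold lower (1.10 to 2.28). Tekt5 was at 2.30 and 1.20 FPKM, 1.92-fold lower (1.12 to 3.41). Tekt4 was at 2.63 and 2.01 FPKM, within its counting error. Tekt3, at 0.255 and 0.0412 FPKM, rested on about 7 reads in control lung and 1 in knockout lung, a 6.18-fold difference with an interval from 0.692 to 243.

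**Figure D2:**
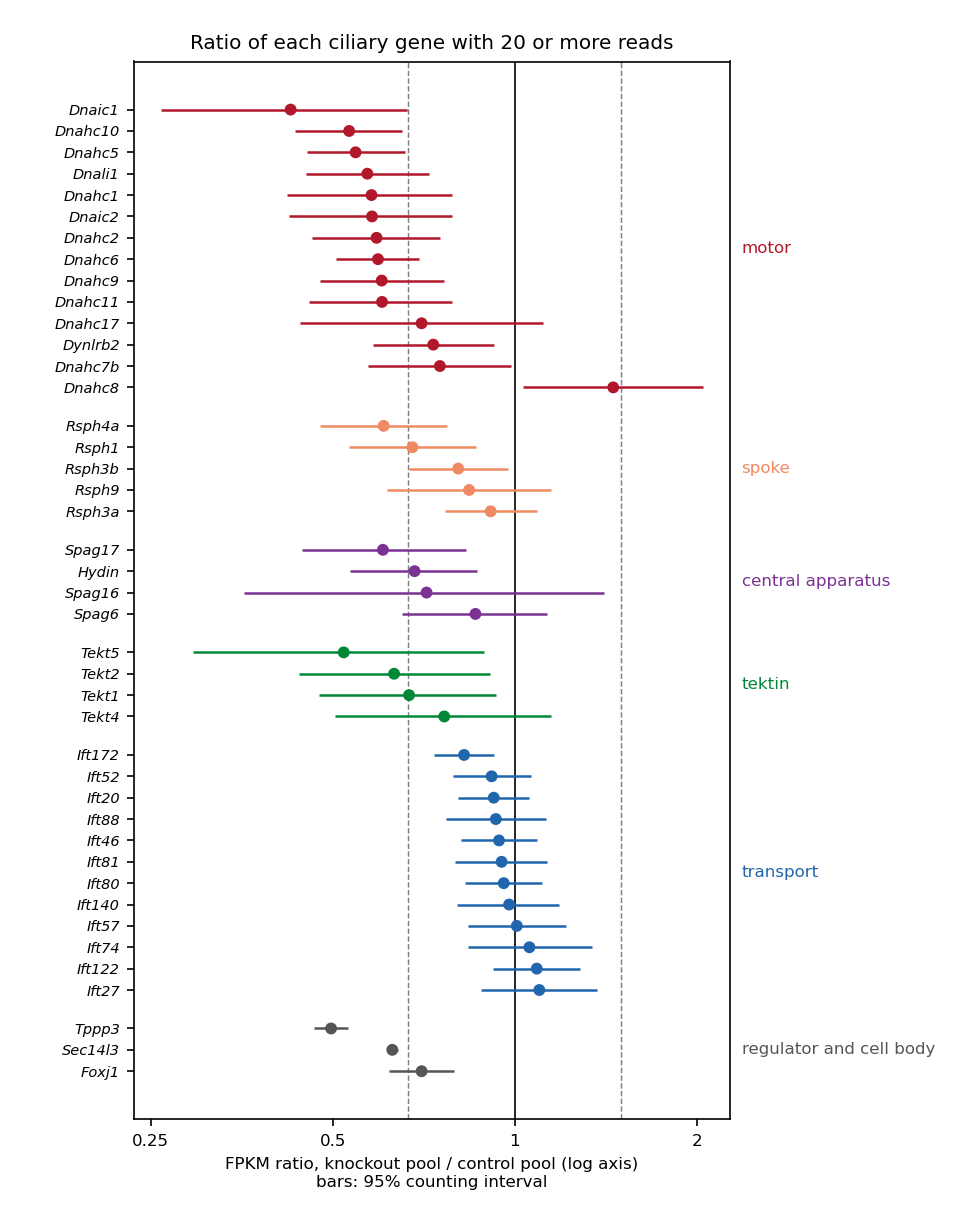
FPKM ratio of the knockout pool to the control pool (log axis) for the 42 members with 20 or more estimated reads. Points are single ratios, bars are 95% counting intervals, the solid line marks equality and dashed lines mark 1.5-fold. The points of the 12 transport genes sit within 0.825 and 1.10, right of the points of all motor genes except Dnahc8, while some bars overlap.

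Intraflagellar transport genes differed little between the pools. Of 12 genes, 8 were lower and 4 higher, none by 1.5-fold, and the intervals of 11 included equality. Their median was 1.05-fold lower and their summed FPKM was 115 in control lung and 109 in knockout lung. Ift172, the large peripheral subunit of the anterograde IFT-B train, was the exception at 8.71 and 7.18 FPKM, 1.21-fold lower (1.08 to 1.36). Ift20, an IFT-B subunit that also works at the Golgi and the most abundant of the group, was at 39.5 and 36.5 FPKM, 1.08-fold lower (0.948 to 1.24). The IFT-B core genes Ift52 (12.2 and 11.1 FPKM), Ift46 (8.12 and 7.65 FPKM), Ift81 (6.18 and 5.88 FPKM) and Ift88 (5.17 and 4.81 FPKM) were slightly lower, each within its counting error. This also held for Ift80, at 6.28 and 6.02 FPKM. Slightly higher were the small GTPase gene Ift27 (10.6 and 11.6 FPKM), the tubulin-binding Ift74 (4.56 and 4.83 FPKM) and Ift57 (6.17 and 6.22 FPKM), again within counting error. The IFT-B core thus showed no common direction beyond counting error.

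The retrograde IFT-A train was represented by Ift140, at 2.56 and 2.51 FPKM, and Ift122, at 4.68 and 5.09 FPKM. Neither differed beyond its counting error. Ift122 has 2 records that differ in length by only 3 bases, 4067 and 4064. In the control pool all of its signal was placed on the shorter record (4.68 FPKM), and in knockout lung it was divided into 1.94 FPKM on the longer and 3.16 on the shorter. Its summed level was nearly even, but the more abundant record alone was lower in knockout lung, with a log2 ratio of -0.45 instead of 0.10. Whether the isoforms differ between the pools cannot be told apart from a different division of shared reads.

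The groups were then set side by side. On the plain scale the motor median log2 ratio was -0.76 and the transport median -0.07, a difference of -0.69, and the spoke median lay -0.24 from that of transport. On the log2(FPKM + 1) scale these differences were -0.43 and -0.22. Motor genes other than Dnahc8 ranged from 1.33-fold to 2.35-fold lower, and the lowest transport gene was 1.21-fold lower, so that these single ratios did not overlap. Some of their intervals did, such as those of Dnahc7b (1.02 to 1.75) and Dnahc17 (0.898 to 2.27) with that of Ift172 (1.08 to 1.36). Spoke and transport genes did overlap, through Rsph3a at 1.10-fold lower (0.919 to 1.30) and Rsph9 at 1.19-fold lower (0.871 to 1.63). With 1 library per genotype the difference between groups has no test.

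**Figure D3:**
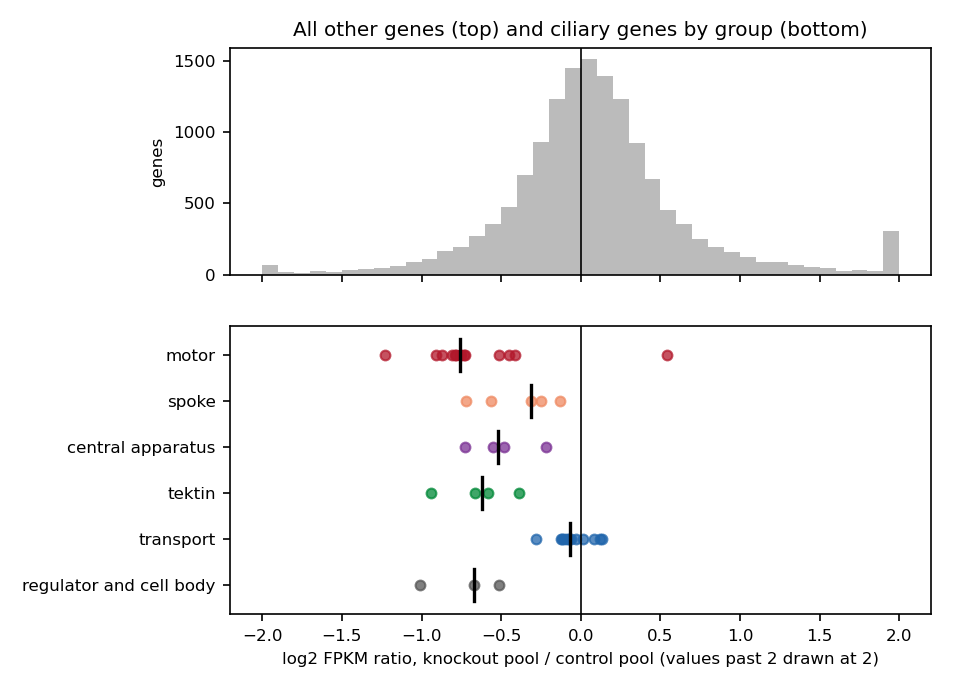
Top, number of genes by log2 FPKM ratio (knockout pool over control pool) for genes that are not members and had 20 or more estimated reads. Bottom, the members by group, each point a gene and each black bar the group median, from -0.76 for motors to -0.07 for transport genes.

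Transcript length moved with the ratio. Among genes that are not members, the plain median log2 ratio was 0.15 for transcripts of 1000 to 2000 bases and -0.18 for the 99 transcripts of 12000 bases or more, of which 10.1% were at least 1.5-fold lower. The 11 members of that length, the dynein heavy chains and Hydin, had a median of -0.73. The median was -0.25 for the 3 members under 1000 bases, -0.56 for the 9 of 1000 to 2000 bases, -0.35 for the 14 of 2000 to 4000 bases and -0.06 for the 5 of 4000 to 8000 bases. Those 5 are Spag17 and the transport genes Ift172, Ift80, Ift122 and Ift140, so that length and gene group are mixed in these medians. The part of length in the folds of the heavy chains was not tested.

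The 3 genes of the ciliated cell outside the axoneme were all lower. Sec14l3, which encodes a lipid-binding protein and was by far the most abundant member, was at 445 FPKM in control lung and 279 in knockout lung, 1.59-fold lower (1.56 to 1.63). Tppp3, a tubulin polymerization gene, was at 192 and 95.2 FPKM, 2.01-fold lower (1.89 to 2.15). Foxj1, the transcription factor that switches on motile cilium genes, was at 17.3 and 12.2 FPKM, 1.43-fold lower (1.26 to 1.61). Foxj1 thus differed less than most of the dynein genes, although the intervals overlap. In mm9, Sec14l3 is on chromosome 11 from 3964856 to 3978993, Tppp3 on chromosome 8 from 107991392 to 107995322 and Foxj1 on chromosome 11 from 116192018 to 116196668. No other symbol overlaps these loci.

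The other genes of the motile apparatus, listed by function, were summarised on the log2(FPKM + 1) scale. All 10 expressed genes of the nexin-dynein regulatory complex, which links neighbouring doublets, were lower, with a median log2(FPKM + 1) ratio of -0.33 and 2 at least 1.5-fold lower. Ccdc39, a ruler protein on which the complex and the inner arms are built, was at 4.91 and 2.49 FPKM, 1.97-fold lower (1.59 to 2.46), while Gas8 (5.96 and 5.55 FPKM) and Lrrc48 (6.38 and 5.68 FPKM) differed by less than counting error. Of 25 further motile cilium genes, 23 were lower, 6 of them by at least 1.5-fold, with a median of -0.39. Of all genes on this scale, 43.2% were lower and 4.63% at least 1.5-fold lower. The lowest of the 25 further motile cilium genes was Enkur at 6.24 and 2.78 FPKM, 2.25-fold lower (1.58 to 3.27). Lrrc23, a spoke protein, was at 11.1 and 6.65 FPKM, 1.67-fold lower (1.35 to 2.08). Morn2 (4.52 and 5.04 FPKM) and the centrin gene Cetn2 (26.1 and 25.8 FPKM) differed by less than counting error. Arm assembly and docking genes had a median of -0.16 over 11 genes, none past 1.5-fold. Ccdc114, a docking protein of the outer arm, was at 4.0 and 2.50 FPKM, 1.60-fold lower (1.22 to 2.11). The light chains Dynll1 (74.8 and 80.4 FPKM) and Dynll2 (59.1 and 58.4 FPKM), which serve many complexes outside cilia, were nearly even. On plain ratios, at least 1.5-fold lower were 6 of 12 genes of the nexin-dynein complex, 11 of 27 further motile cilium genes and 5 of 14 arm assembly and docking genes, beside 8.44% of all genes.

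Genes that also serve the primary cilium had medians near that of the transport genes. The 18 expressed transport subunits and train motors without a numbered symbol had a median of -0.10, none past 1.5-fold, from Wdr60, a subunit of the retrograde motor, at 3.45 and 2.30 FPKM to Tulp3, an IFT-A adaptor, at 7.74 and 9.58 FPKM. The 9 genes of the BBSome and its recruiter, a coat that moves membrane proteins through cilia, had a median of -0.08, from Bbs2 (4.65 and 2.97 FPKM) to Arl6 (5.14 and 6.36 FPKM). The 19 expressed transition zone and primary cilium genes had a median of -0.05, from Tmem231 (4.16 and 2.64 FPKM) to B9d1 (6.33 and 8.76 FPKM). No gene of the BBSome or transition zone lists passed 1.5-fold on this scale. On plain ratios, 1 of 20 further transport genes, 1 of 9 BBSome genes and 1 of 20 transition zone genes were at least 1.5-fold lower. The share of all genes was 8.44%, so that these counts are near what the whole set of genes gives. Regulators of multiciliated cell formation had a median of 0.01 over 11 genes and split in direction, with 5 lower and 6 higher. The lowest of them was Foxj1, itself a member, at -0.48. On plain ratios the interval lay wholly below equality for 4 of 12 regulators, against 21.2% of all genes. It lay wholly above for 2, against 31.8%. Rfx3, named after its value was seen, was 1.39-fold lower (1.13 to 1.71), while the intervals of Rfx1 and Rfx2 included equality. At least 1.5-fold lower were 2 of the 12, against 8.44% of all genes. These were Trp73 (1.68 and 1.05 FPKM) and Myb (3.14 and 1.99 FPKM), both named after their values were seen. At least 1.5-fold higher were 2 regulators, against 13.1% of all genes. The highest was the centriole kinase gene Plk4, at 1.67 and 6.29 FPKM, 3.76-fold higher (2.99 to 4.78). Plk4 and Tfdp1 (13.6 and 23.3 FPKM) also act in dividing cells of any type.

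**Figure D4:**
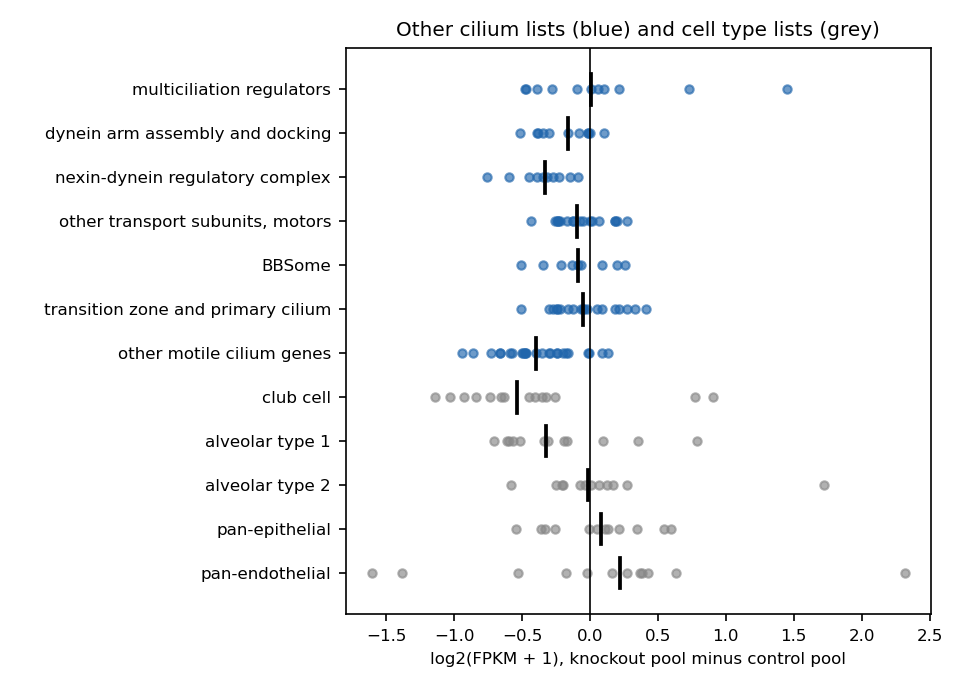
Difference in log2(FPKM + 1), knockout pool minus control pool, for genes averaging at least 1 FPKM in 7 further cilium lists (blue) and 5 cell type lists (grey). Points are genes and black bars are medians, which lie at -0.39 for other motile cilium genes, -0.33 for the nexin-dynein complex and between -0.10 and -0.05 for the transport, BBSome and transition zone lists.

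Most club cell markers were also lower in knockout lung. Club cells, the secretory cells that line the same airways, had a median of -0.54 over 14 marker genes, 7 of them at least 1.5-fold lower and 2 higher, against 4.63% and 9.41% of all genes. Their summed level was 41059 FPKM in control lung and 25753 in knockout lung. None of the 15 club cell genes was at 0. Cbr2 was 2.21-fold lower (2.17 to 2.25) and Scgb1a1, the main club cell secretory protein gene, 1.55-fold lower (1.54 to 1.56), while Retnla was 1.91-fold higher (1.60 to 2.26). Of markers common to lung epithelium, 12 genes had a median of 0.08 and summed levels of 397 and 425 FPKM. Type 2 alveolar cells had a median of -0.02 over 12 genes, with 0 at least 1.5-fold lower and 1 higher. The type 1 alveolar list had a median of -0.32 over 12 genes, with 3 at least 1.5-fold lower and 1 higher. Of these 12, 9 were below equality and 3 above. Rtkn2 was 1.64-fold lower, Hopx 1.48-fold lower and Ager 1.12-fold lower. Igfbp2 was 1.73-fold higher, Pdpn 1.28-fold higher and Aqp5 1.07-fold higher. Lower values were thus not confined to the airway lists, but the type 1 list was mixed. Whether its genes are read from type 1 cells alone was not tested. Basal, mucous and neuroendocrine airway markers were nearly undetected, with summed levels of 3.31 and 3.29 FPKM over 12 genes and Krt5 at 0 in both pools. The part of airway content in the lower axonemal genes was not tested.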

How the data were processed

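RNA of whole lung was sequenced for 2 pooled libraries, 1 for each genotype. The authors deposited FPKM values and coverage (read depth per base) for 28107 RefSeq transcripts per library, per the file headers. Coverage is a constant multiple of the deposited FPKM within a library (1.65 and 1.28 FPKM per unit in the knockout and control library). Per the submitters' processing notes, mm9 was the genome build, and DESeq appears there with no role. Aligner, quantification tool and strand setting were not given in the sources used here. Every member record had the status OK.

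FPKM were summed over the records of a symbol (22072 genes). Ratios were taken as log2(FPKM + 1), knockout minus control, for genes averaging at least 1 FPKM, a scale that understates differences of weakly expressed genes. Coverage times length peaked at 46.7 and 46.3 bases among genes with very few reads in the knockout and control libraries, taken as 1 read. From these reads, exact conditional (Clopper-Pearson) intervals of FPKM ratios were computed with scipy 1.17.1. The calculation was run on counts simulated under the Poisson model that the intervals assume, which does not test the read estimates. The intervals leave out differences between mice and preparations. No p-values were computed. Every member over the floor is named, and from each further list the lowest, the highest and the 2 most abundant genes where a result turns on them. Members, groups and lists were chosen with earlier results of these data known. Lists for brain and ependymal genes (7 genes, summed 21.2 and 28.8 FPKM in control and knockout) and endothelium (12 genes, median log2 ratio 0.22) were also examined.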

Additional observations from a re-analysis of the deposited data

How the results depend on the processing

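The 11 summary values were recomputed under 10 settings planned at the outset and 5 chosen after seeing the data. Of 162 recomputed values, 155 stayed within a tolerance around the first value. For a median this was the median half-width of the counting intervals of its single genes. For a difference it combined those of both groups, and for counts it was 1.5 times. This tolerance is not the counting error of a median, and every setting reused the same reads. With a pseudocount of 0.1 the motor median moved from -0.49 to -0.79, within its tolerance of 0.33. The motor minus transport difference moved from -0.43 to -0.73, within 0.41. The exception to the tolerance was the number of members at least 1.5-fold lower, 5 on the log2(FPKM + 1) scale. It was 11 with a pseudocount of 0.1, 2 with a pseudocount of 3, 3 with a floor of 5 and 3 without members whose locus overlaps another symbol. It was 11 with FPKM rescaled to a constant library total, which also raised the values against the added 1 and let 40 members past the floor. It was 16 on plain ratios, which also replaced the floor by 20 reads (42 members), and 16 there without members with a near-identical relative (38 members). Under these same settings the share of all genes that was at least 1.5-fold lower ranged from 2.87% to 8.44%. No setting gave a member that was at least 1.5-fold higher. The motor median lay below the transport median in 15 of 15 settings, by -0.73 to -0.29 on the log2 scale. The spoke median did so in 15 of 15. These settings are not independent checks. Centring on the median of all genes subtracts a constant and cannot change a difference between groups. The motor minus transport difference also stayed at -0.43 with status OK records only, with Rsph3a and Rsph3b summed, and without near-identical relatives. A change of pseudocount rescales the same values of each gene. The motor median lay below the spoke median in 14 of 15 settings. It did not on the log2(FPKM + 1) scale when members with a near-identical relative were left out, where the difference was 0.01.

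Of 32 named members, 5 were past 1.5-fold at first, and none of these changed direction. A change of pseudocount or a plain ratio cannot change the sign of a single gene. Of 256 recomputed values of named members, 8 moved by more than the half-width of the gene's own counting interval. Among these was Dnahc5, from -0.45 to -0.87 on plain ratios. Ift57, nearly even, changed sign under 3 scalings, and Ift122 when only its most abundant record was used. With a floor of 5 no tektin or central apparatus gene remained for a median. No paired analysis was possible because each genotype has 1 library, and leaving out a library leaves no comparison. Tektins and the weaker heavy chains are limited by depth, with Tekt5 resting on about 50 and 20 reads and Dnahc17 on 57 and 31.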

Other observations

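The length of transcripts and the ratio between the pools moved together across all lung genes. Among genes that are not ciliary members and had 20 or more estimated reads, the median log2 FPKM ratio was 0.17 for 1012 genes under 1000 bases, 0.07 for 5957 genes of 2000 to 4000 bases, -0.03 for 3471 genes of 4000 to 8000 bases and -0.12 for 454 genes of 8000 to 12000 bases. The share at least 1.5-fold lower did not rise steadily, at 6.92%, 8.26%, 9.25% and 8.59% in these classes from the shortest to the longest.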
